A study of Rattus norvegicus with 8 samples.

Results

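The sorting nexins (Snx) and the vacuolar protein sorting (Vps) genes were followed in rat alveolar macrophages given multi-walled carbon nanotubes. Members were all non-control probes whose gene name in the array files began with Snx or Vps and then a digit. This gave 79 probes for 58 genes, among 45598 probes on the array. The Snx genes numbered 28, with 39 probes, and the Vps genes numbered 30, with 40 probes. The cells were NR8383, a line of alveolar macrophages started from lavage of a normal rat's lung, so every culture came from 1 line. Both groups spent 4 h without serum, with 0.17 µg/mL of the nanotube NM401 in the exposed group and 0 µg/mL in the control group. Each group had 4 biological replicates per the labels, and each replicate had its own 1-colour Agilent array. The comparison asked how gene expression differed after this short, low exposure.

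Sorting nexins bind phosphoinositides on endosomal membranes through a PX domain, and many also bend the membrane into tubules through a BAR domain. The Vps proteins, first found through yeast mutants that missorted vacuolar enzymes, form the machines that these tubules serve. Retromer returns receptors from endosomes, the ESCRT complexes pack cargo into intraluminal vesicles, HOPS and CORVET tether endosomes and lysosomes before fusion, and GARP tethers vesicles at the Golgi. Macrophages use the same machines to mature phagosomes and to recycle the receptors that take particles up.

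Each value below is the log2 processed signal of a probe minus the 75th percentile of the non-control spots on the same array. A difference is NM401 minus control on that log2 scale, with the standard error (SE) of a limma fit over all tested probes. Each probe binds with its own strength, so a gene's value is compared across arrays and never with another gene's value. The members were chosen by name and as a group selected on their NM401 minus control differences, the same contrast that is described here. Their differences are therefore a description with no test, and a call means only that limma's adjusted p was below 0.05 in the fit over all 21685 tested probes. A gene with several probes is represented by its brightest tested probe unless another is named. Because each array measured the RNA of a whole culture, fewer cells carrying a transcript and less of it per cell cannot be told apart. With 4 arrays per group, the number of arrays limits the precision of every value.

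The arrays themselves differed between the groups. The 75th percentile of the processed signal ran from 958 to 1490 on control arrays and from 2540 to 2880 on NM401 arrays. After scaling, the added control transcripts read lower with NM401 than without it, by 2.3 on the log2 scale. Every sign below is therefore relative to the array's 75th percentile, and scaling on those transcripts, whose amount per array is not given in the sources used here, would raise every difference by that amount and was not used. The share of spots well above background ran from 51.7 to 58% over the arrays, and 0 spots were saturated. Slide 1 carried the 4 control arrays and NM401 replicate 1, and slide 2 carried NM401 replicates 2 to 4. The scan followed the slide. On both slides the NM401 arrays sat in row 2, and the controls sat in row 1 of slide 1, so array row and exposure cannot be told apart. Of 11 macrophage markers on the array, 9 were well above background on all 8 arrays, among them Cd68, Csf1r, Itgam and Mrc1, whereas Marco was on none. The log2 summed signal of these markers ran from 7.08 to 7.17 on control arrays and from 6.88 to 6.97 on NM401 arrays. Of 7 epithelial markers, 0 were well above background on every array and Epcam and Cdh1 were on none, with summed levels of -4.1 to -3.67 in controls and -5.05 to -3.53 with NM401. Of 5 lymphocyte markers 1 (Cd3d) was well above background throughout and Cd3e and Cd8a were among those on none, with summed levels of -3.25 to -2.75 and -3.94 to -3.11. Of 6 neutrophil markers 1 (Camp) was present throughout and Elane, Cxcr2 and Csf3r were on none, with summed levels of -1.09 to -0.664 and -1.72 to -1.24. Of 7 fibroblast and endothelial markers, 3 (Dcn, Pecam1 and Cdh5) were present throughout and Col1a1, Col3a1, Pdgfra and Kdr were on none. Their summed level was -0.144 to -0.117 in controls and 0.148 to 0.345 with NM401. The part of array row, signal strength and these marker shifts in the differences below was not tested.

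Of the 79 probes, 74 were well above background on at least 4 arrays and entered the fit. The 5 that did not were the only probes of Snx22 and of Vps8 and one probe each of Snx16, Snx24 and Snx29. That Snx24 probe was well above background on 1 control and 2 NM401 arrays, and the other untested probes were on none. This left 27 Snx and 29 Vps genes. Their representative probes were well above background on all 8 arrays for 53 genes, and the exceptions were Snx18 and Snx33 (2 control and 4 NM401 arrays each) and Vps37d (3 control arrays and 1 NM401 array).

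With NM401, the sorting nexins as a group lay higher relative to the rest of the array than the Vps genes did. Of 27 Snx genes, 14 were called higher and 4 lower, and 9 were not called. Of 29 Vps genes, 6 were called higher and 11 lower, and 12 were not called. Over all 17445 genes tested, 21.9% were called higher and 35.4% lower, 57.3% in all. The median difference was 0.23 over the Snx genes, -0.05 over the Vps genes and -0.10 over all genes. Under centring on the array median every gene moved up by 0.37, which took the Vps median to 0.32 and the Snx median to 0.59. Relative to the median of all genes, which no such constant can shift, the Snx genes lay at 0.32 and the Vps genes at 0.05. Other processing did shift these positions. With normexp background correction the medians were 0.12 (Snx), -0.04 (Vps) and -0.24 (all genes). With no filter on dim probes they were 0.19, -0.05 and -0.39, and with quantile normalization 0.31, 0.02 and 0.01. The NM401 arrays all lay above the control arrays for 14 Snx and 5 Vps genes, and all below them for 4 Snx and 10 Vps genes. The same was true of 21% and 32.2% of all genes, 53.2% in all. Because the contrast chose the members, nothing is read from these counts.

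**Figure D1:**
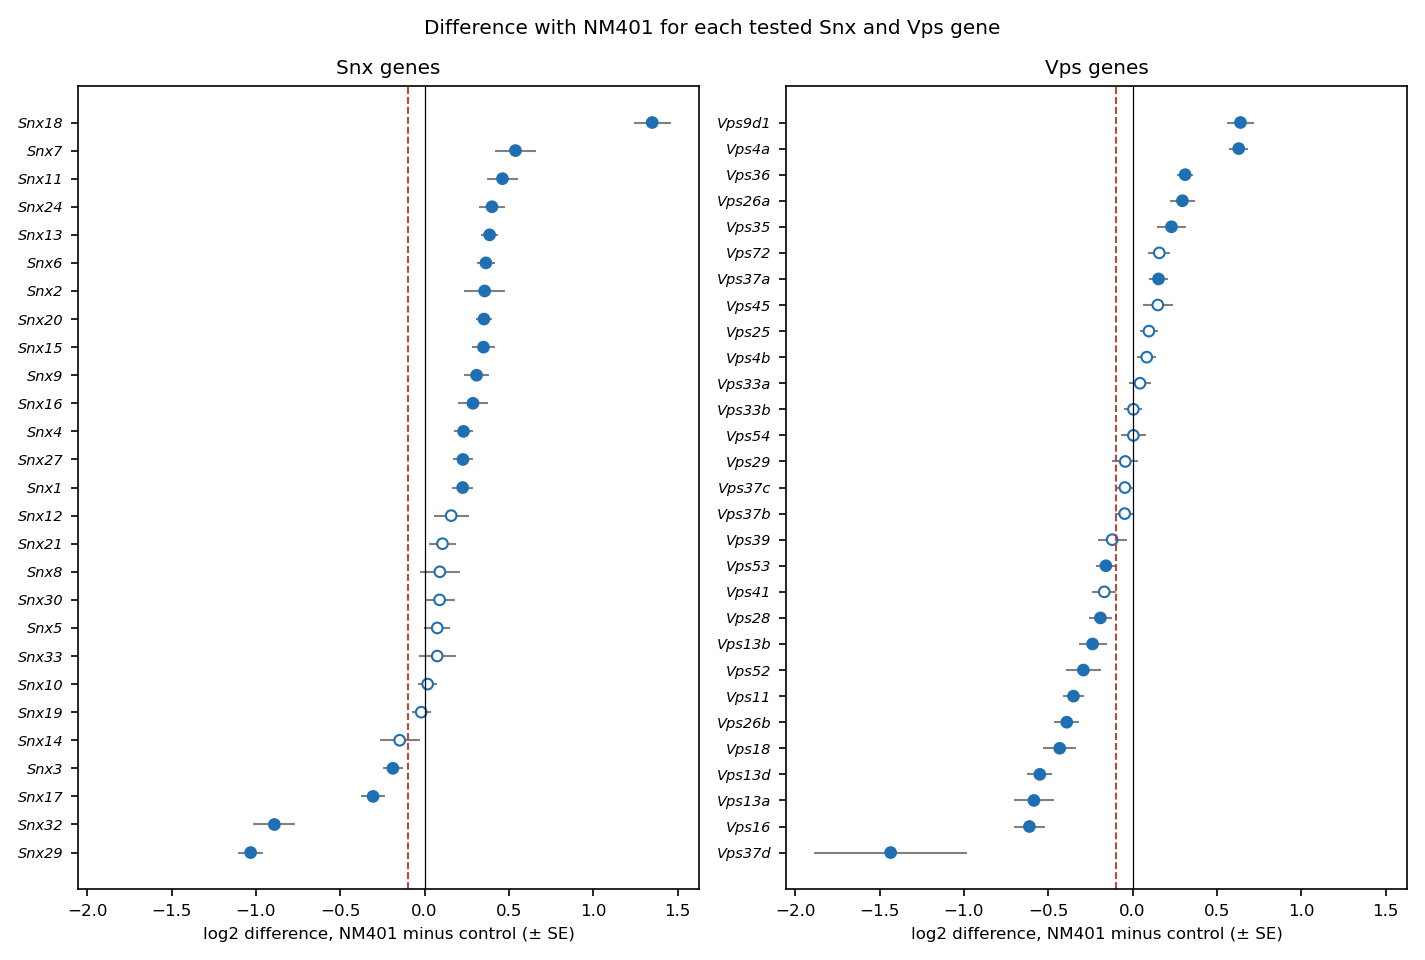
Log2 difference (NM401 minus control) with its SE for the 27 Snx and 29 Vps genes tested, each by its brightest probe, with filled points for called genes and a dashed line at the median of all genes (-0.10). Snx18 stands highest at 1.35 and Vps37d lowest at -1.43, both on dim probes, and centring on the array median would move every point up by 0.37, which carries 14 of the 22 genes below 0 above it.

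The gap between the families can be described array by array, which adds no support to it, since the contrast chose the members. Measured against the control mean of each gene, the Snx median was 0.16, 0.20, 0.20 and 0.24 on NM401 arrays 1 to 4, a mean of 0.20 ± 0.03 (SD, n = 4). The Vps median on the same arrays was -0.05, -0.12, -0.04 and -0.06, a mean of -0.07 ± 0.03 (SD, n = 4). The gap within an array, which no scaling constant can move, was 0.21, 0.32, 0.25 and 0.29 with NM401, a mean of 0.27 ± 0.05 (SD, n = 4). On control arrays it was 0.05, 0.01, 0.01 and -0.02, a mean of 0.01 ± 0.03 (SD, n = 4), and it lies near 0 by construction, because values were taken from the control means. The NM401 array that shared slide 1 with the controls gave 0.21. With the slide as a block in the fit, whose estimate rests on that 1 exposed array, 10 Snx genes were called higher and 3 lower. For Vps genes the calls were 4 higher and 6 lower. Calls fell over the whole array too, from 3823 higher and 6178 lower to 2216 and 3525 of 17445 genes. Within slide 1 alone, with 4 control arrays and 1 NM401 array, the medians were 0.16 for Snx, -0.05 for Vps and -0.08 for all genes.

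**Figure D2:**
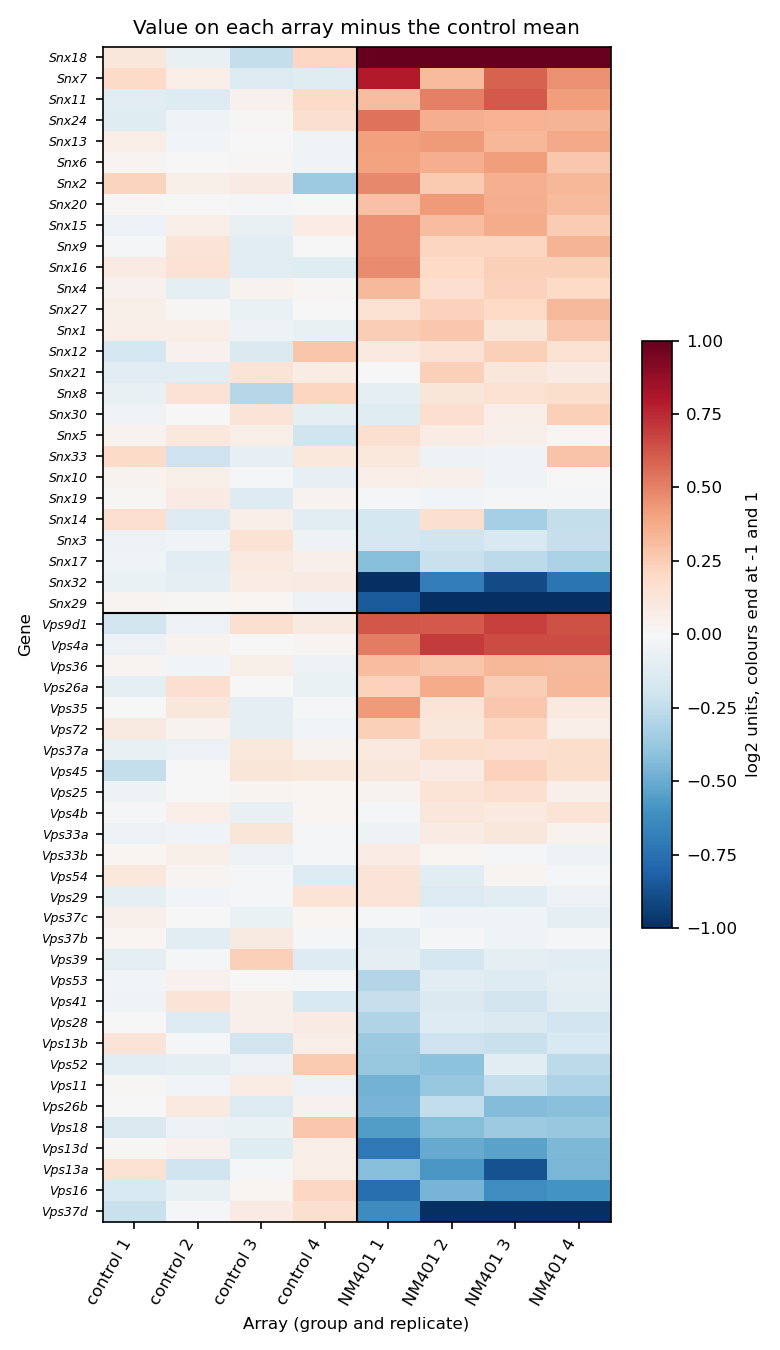
Heat map of each tested Snx gene (above the line) and Vps gene (below it) on the 8 arrays, as the log2 value minus the gene's control mean, with colours ending at -1 and 1. Red genes fill most of the Snx block on all 4 NM401 arrays (array medians of 0.16 to 0.24), while the Vps block holds both colours (-0.12 to -0.04), and centring on the array median would shift the colours toward red.

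Snx18 had the largest difference of the tested sorting nexins with these settings, though not under normexp background correction or with the authors' series values. It belongs to the SH3-PX-BAR group with Snx9 and Snx33, which bind dynamin and shape membranes during endocytosis. Its values were -5.27, -5.46, -5.63 and -5.18 on control arrays and -4.07, -3.85, -4.12 and -4.11 on NM401 arrays. The exposed arrays were all higher, by 1.35 ± 0.11 (SE). The probe was dim, well above background on 2 of 4 control arrays, so the size is uncertain. Under normexp, run with an offset of 50 units, the Snx18 difference was 0.22 and not called. That was below those of Snx2 (0.41), Snx20 (0.37), Snx7 (0.36) and Snx9 (0.32). Such an offset lifts dim values most, and more so on the control arrays, whose signal was lower. Its part in the normexp values here and below was not tested. With the authors' series values Snx18 stood at 0.38 and was called, where Snx2 was at 0.41. Snx9, its close relative, was 0.31 ± 0.08 higher on a brighter probe and was called, with arrays at 0.23, 0.37, 0.14 and 0.24 against 0.70, 0.46, 0.46 and 0.59. Snx33 was at 0.08 ± 0.11 and its groups overlapped.

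The remaining BAR nexins outside the retromer-linked set act in recycling and autophagy. Snx7 forms dimers with Snx4, as does Snx30. Its values were -1.93, -2.05, -2.26 and -2.24 in controls and -1.33, -1.80, -1.53 and -1.67 with NM401. All NM401 arrays were above all controls, by 0.54 ± 0.12 (SE), with the most on the NM401 array of slide 1. Snx4, which returns the transferrin receptor to the cell surface, was 0.23 ± 0.06 higher without overlap and was called, but not under normexp or with the series values, both at 0.14. Snx30 (0.09 ± 0.09) and Snx8 (0.09 ± 0.12), the latter tied to endosome-to-Golgi transport, overlapped between groups. In all, 4 of the 7 genes of this set were called higher and 0 lower, where 21.9% and 35.4% of all genes were. Their median was 0.23.

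The retromer-linked BAR nexins work as mixed dimers of Snx1 or Snx2 with Snx5, Snx6 or Snx32, which coat endosomal tubules. Of these 5 genes, 3 were called higher and 1 lower, where 21.9% and 35.4% of all genes were. Snx1 was 0.23 ± 0.06, Snx2 0.36 ± 0.12 and Snx6 0.36 ± 0.05 higher, each without overlap. The Snx2 difference was 0.24 without control replicate 4, and its call was lost in 6 of the 8 fits that left out 1 array and kept in 9 of 18 alternative settings. Snx5 was at 0.08 ± 0.08 with overlapping groups. Snx32, a paralogue of Snx6, went the other way, with values of 2.15, 2.13, 2.30 and 2.31 in controls and 0.98, 1.53, 1.33 and 1.49 with NM401. RefSeq named no gene for the Snx5 and Snx32 probes, so their names rest on the array files. For Snx32 every exposed array lay below every control array, by -0.89 ± 0.12 (SE), a 1.85-fold lower signal. The log2 ratio of Snx5 to Snx32 therefore stood 0.97 higher with NM401, and that of Snx5 to Snx6 stood 0.29 lower, a shift of -0.29.

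The nexins built mainly from a PX domain ranged widely, from Snx29 to Snx11. Of 10 such genes, 5 were called higher and 2 lower, where 21.9% and 35.4% of all genes were, with a median of 0.22. Snx29, which carries a RUN domain, had values of -1.59, -1.60, -1.60 and -1.67 in controls and -2.45, -2.72, -2.73 and -2.70 with NM401. The 2 groups were far apart relative to their spread, at -1.03 ± 0.07 (SE), and NM401 replicate 1 lay closest to the controls. Snx11 and Snx10 are close relatives, and Snx10 is known for its part in osteoclast acidification. Snx11 read -4.07, -4.10, -3.92 and -3.77 in controls and -3.65, -3.46, -3.36 and -3.55 with NM401, a difference of 0.46 ± 0.09. The groups did not overlap, although under normexp correction this dim probe gave 0.02 and was not called. Snx10 was at 0.02 ± 0.05.

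Snx24 read -3.23, -3.16, -3.10 and -2.95 in controls and -2.57, -2.74, -2.76 and -2.77 with NM401. Its exposed arrays were all higher, by 0.40 ± 0.08, and normexp correction left 0.12, not called. Snx16, which acts in the traffic of the EGF receptor, was 0.29 ± 0.09 higher without overlap, and 0.01 and not called under normexp. Snx15 (0.35 ± 0.07), which carries an MIT domain, and Snx20 (0.35 ± 0.05), the latter a partner of the selectin ligand PSGL-1, were higher without overlap, whereas Snx21, the relative of Snx20, was at 0.11 ± 0.08 with overlap and at 0.36 ± 0.10 on its other probe, which was called. Snx3, which helps retromer retrieve the Wnt carrier Wntless, differed the other way from most of this group. It read 2.13, 2.14, 2.33 and 2.14 in controls and 2.01, 1.99, 2.04 and 1.96 with NM401. These ranges were apart by a narrow margin, at -0.19 ± 0.06, the call was kept in 7 of 18 alternative settings, and centring on the array median turned the difference to 0.18. Its paralogue Snx12 was at 0.16 ± 0.10 with overlap.

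Snx17 and Snx27 recycle receptors through a FERM domain, Snx17 with the Commander complex and Snx27 with retromer, and they differed in opposite directions. Snx17 read 1.52, 1.45, 1.65 and 1.61 in controls and 1.13, 1.34, 1.30 and 1.24 with NM401. All exposed arrays were lower, by -0.31 ± 0.07, and centring on the array median took this to 0.06. Snx27 was 0.23 ± 0.06 higher without overlap, and 0.14 and not called by the mean of its probes. Among the nexins with an RGS domain, which sit on the endoplasmic reticulum and touch endosomes or lipid droplets, Snx13 read -2.79, -2.88, -2.85 and -2.90 in controls and -2.44, -2.43, -2.52 and -2.48 with NM401. The 2 sets of 4 were each tight, and Snx13 stood 0.39 ± 0.05 higher, and 0.15 higher under normexp. Snx14 read -1.72, -2.02, -1.82 and -2.00 against -2.06, -1.73, -2.23 and -2.13, which overlap, at -0.15 ± 0.12. Snx19 was at -0.02 ± 0.06 on its brightest probe, and its other probes gave -0.27 ± 0.10 (not called) and -1.02 ± 0.24 (called).

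The retromer trimer holds Vps35, Vps29 and either Vps26a or Vps26b, and its Vps26 paralogues differed in opposite directions. The probes for them are shown by the first 30 of their 60 bases, 5′ to 3′, to identify what was measured, with positions on the rat build rn4 that the array files use. The Vps26a probes lie at chr20:29707922-29707981 and chr20:29709327-29709386 on the minus strand. Vps26b is placed on an unassigned part of chromosome 8. Whether a probe falls in coding or non-coding sequence is not given in the sources used here.
Vps26a, brightest probe: gtgcctgttcagagtttcaaagtttcaaaa
Vps26a, other probe: gcacctgagaaactgagaaaacagaggacg
Vps26b: ctgtgttctttgtaatttggaaagtaaagg

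Vps26a read -0.07, 0.19, 0.03 and -0.04 in controls and 0.26, 0.40, 0.27 and 0.36 with NM401 on its brightest probe. The exposed arrays were all higher, by 0.30 ± 0.07, and the other probe, at -0.91, -0.88, -0.78 and -0.93 against -0.19, -0.37, -0.31 and -0.30, gave 0.58 ± 0.06. With the slide as a block the brightest probe gave 0.23 and was not called. Vps26b read -0.30, -0.20, -0.44 and -0.25 in controls and -0.76, -0.54, -0.73 and -0.72 with NM401. It was lower on every exposed array, by -0.39 ± 0.07, and was at -0.02 and not called when arrays were centred on their median. The log2 ratio of Vps26a to Vps26b, which no scaling of the array can move, was 0.62 to 0.75 above its control mean on NM401 arrays and -0.11 to 0.14 from it on control arrays. Its mean shift was 0.69, with an SD of 0.06 over NM401 arrays and 0.13 over controls (n = 4 each). Vps35, the scaffold, read 0.04, 0.14, -0.06 and 0.01 in controls and 0.46, 0.16, 0.30 and 0.13 with NM401. The lowest exposed array lay just under the highest control, and the difference of 0.23 ± 0.09 was called but lost its call in 9 of 18 alternative settings. Vps29 read 1.96, 2.03, 2.03 and 2.18 against 2.18, 1.91, 1.95 and 1.99, which overlap, at -0.04 ± 0.08.

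**Figure D3:**
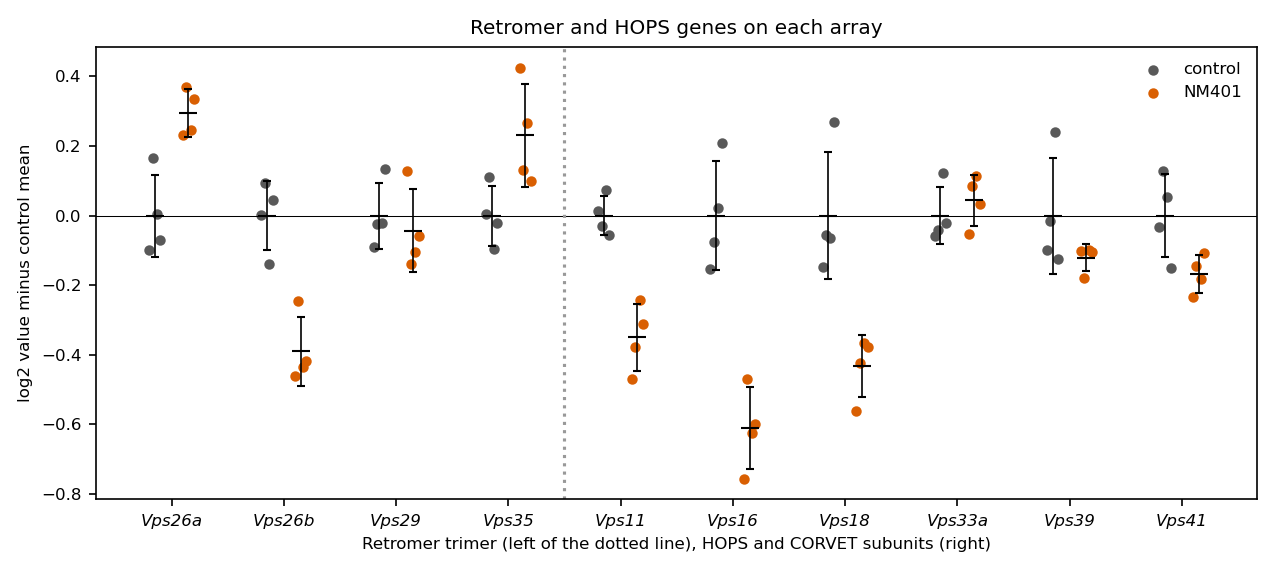
Log2 value minus the gene's control mean on each array for the retromer genes (left) and the HOPS and CORVET genes (right), with horizontal marks at the group mean and bars of 1 SD (n = 4). Vps26a and Vps26b separate in opposite directions (0.30 and -0.39), while Vps11, Vps16 and Vps18 lie below their controls, and under centring on the array median Vps11 would stand at 0.02 and Vps26b at -0.02.

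HOPS and CORVET share the core Vps11, Vps16, Vps18 and Vps33a, to which HOPS adds Vps39 and Vps41. Of these 6 genes 0 were called higher and 3 lower, where 21.9% and 35.4% of all genes were, with a median of -0.26. Centring on the array median turned that median to 0.11. Vps16 read -2.53, -2.45, -2.36 and -2.17 in controls and -3.14, -2.85, -3.00 and -2.98 with NM401. Vps18 read -0.55, -0.46, -0.47 and -0.14 against -0.96, -0.83, -0.77 and -0.78. Neither gene overlapped between groups, and the differences were -0.61 ± 0.09 and -0.43 ± 0.10. Under median centring they were -0.24 and -0.06, and neither was called. Vps11 read -0.46, -0.50, -0.40 and -0.53 against -0.94, -0.85, -0.71 and -0.78, a difference of -0.35 ± 0.06 without overlap, and was at 0.02 under median centring. Vps33a, which pairs with Vps16, was at 0.04 ± 0.06, with overlapping groups. Vps39 (-0.12 ± 0.08) and Vps41 (-0.17 ± 0.07) were not called, though the other probe of Vps41 was called at -0.29 ± 0.06. Vps39 was called lower under normexp (-0.25) and with the series values (-0.23), as was Vps41 by the mean of its probes (-0.23). Vps33b, which works with Vipas39 in a separate complex, was at 0.00 ± 0.05.

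The ESCRT complexes act in sequence, and at the end the ATPases Vps4a and Vps4b take ESCRT-III apart. Vps4a read -2.14, -2.05, -2.09 and -2.06 in controls and -1.57, -1.38, -1.43 and -1.43 with NM401. Its arrays separated by several times their spread, at 0.63 ± 0.06, a 1.55-fold higher signal, and its call was kept in all 18 alternative settings. Vps4b was at 0.08 ± 0.06 with overlap. The log2 ratio of Vps4a to Vps4b was shifted by 0.55, with NM401 arrays 0.51 to 0.59 above the control mean and control arrays within -0.05 to 0.07 of it. Of the ESCRT-II subunits, Vps36 read 0.74, 0.69, 0.77 and 0.66 in controls and 1.03, 0.99, 1.05 and 1.04 with NM401. It was 0.31 ± 0.05 higher with no overlap, while Vps25 was at 0.10 ± 0.05 and not called.

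Among the ESCRT-I subunits, Vps37a was 0.15 ± 0.06 higher and called with overlapping groups, a call kept in 8 of 18 settings. Vps28 was -0.19 ± 0.07 and called, but the call was kept in 5 of 18 settings, with -0.04 under quantile normalization and 0.18 under median centring. Vps37b (-0.05 ± 0.06) and Vps37c (-0.05 ± 0.05) were not called. Vps37d was measured on a dim probe, well above background on 3 control arrays and 1 NM401 array, so its size is uncertain. It read -5.91, -5.70, -5.60 and -5.52 in controls and -6.32, -6.82, -6.70 and -8.64 with NM401. All exposed arrays were lower, but replicate 4 set much of the size: the difference was -1.43 ± 0.45 with it and -0.93 without it.

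The GARP subunits Vps52, Vps53 and Vps54 tether endosome-derived vesicles to the trans-Golgi network. Vps52 was -0.29 ± 0.10 and Vps53 -0.16 ± 0.06, both called and without overlap, and Vps54 was at 0.00 ± 0.07. The Vps52 groups barely separated, with a highest exposed array of -1.2302 and a lowest control of -1.2299. Its other probe gave -0.11 ± 0.11 with overlap, not called, and the mean of its probes was -0.20 and not called. The other probe of Vps53 gave -0.21 ± 0.13, not called, though the mean of its probes kept the call at -0.19. The call of Vps52 was kept in 7 and that of Vps53 in 3 of 18 alternative settings. Under median centring Vps52 stood at 0.08 and Vps53 at 0.21. The Vps13 proteins are long bridges that carry lipids between membranes. All 3 measured members were called lower, where 35.4% of all genes were, with a median of -0.55. Under median centring that median was -0.18, and none of the 3 was called lower. Vps13d read -0.61, -0.58, -0.75 and -0.55 in controls and -1.34, -1.13, -1.16 and -1.08 with NM401, and its groups were apart by -0.55 ± 0.07. Vps13a read -4.29, -4.64, -4.46 and -4.38 against -4.87, -5.03, -5.31 and -4.90, also apart, at -0.58 ± 0.12, but its other probes gave -0.45 ± 0.17 and 0.48 ± 0.37, neither called. The mean of the Vps13a probes was -0.18 and not called. Vps13b was -0.24 ± 0.08 with overlapping groups, kept its call in 6 of 18 settings and stood at 0.13 under median centring.

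The last 3 Vps genes belong to no such complex. Vps45 is the SM protein of endosomal SNAREs and was at 0.15 ± 0.09. Vps72 is a subunit of histone-exchange complexes in the nucleus and no sorting protein, and was at 0.16 ± 0.06, not called. Vps9d1 carries the VPS9 domain found in activators of Rab5, and its probes disagreed in direction. The brighter probe lies at chr19:53560880-53560939 and the other at chr19:53565551-53565610 (rn4, minus strand). Their first 30 bases, 5′ to 3′, show that they query different stretches.
Vps9d1, brightest probe: atacagttgaacagactcttcggtgtcaga
Vps9d1, other probe: gcagtatacagtgcactgtaccctgttgtg

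The brighter Vps9d1 probe read 0.37, 0.49, 0.71 and 0.64 in controls and 1.18, 1.17, 1.24 and 1.19 with NM401. The other read -3.40, -3.56, -3.45 and -3.31 in controls and -3.76, -3.96, -3.84 and -3.91 with NM401. Neither probe overlapped between groups, and the differences were 0.64 ± 0.08 and -0.43 ± 0.07, both called. The mean of both probes was 0.10 and not called. Of 15 member genes with several tested probes, 12 had the same sign on all of them and 3 did not (Snx10, Vps13a and Vps9d1). Vps9d1 was the 1 gene called in both directions. The median range between probes of 1 gene was 0.18.

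**Figure D4:**
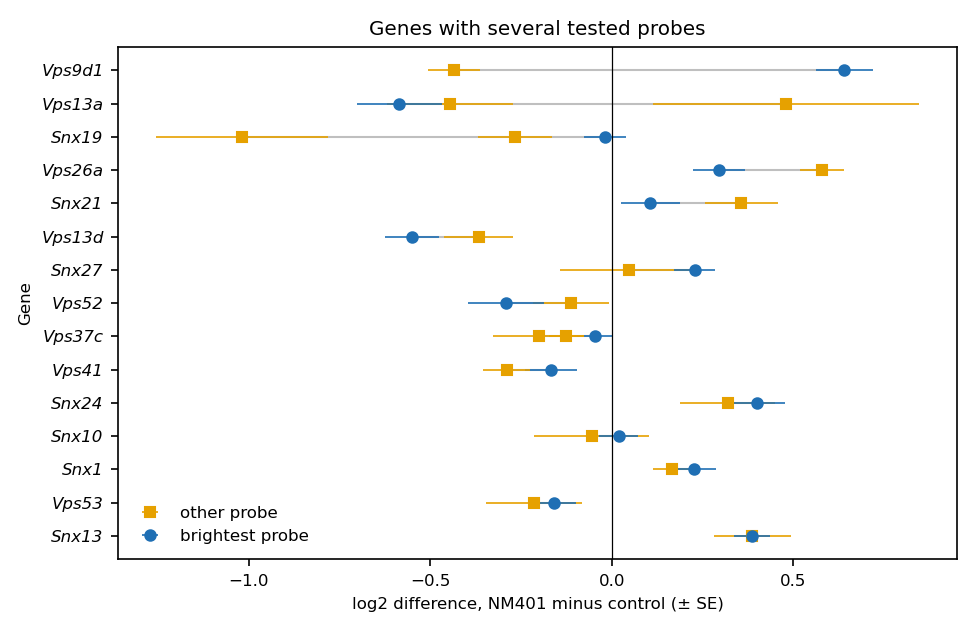
Log2 difference with its SE for every tested probe of the 15 member genes with several, blue for the brightest probe and yellow for the others. Most genes keep their probes within a narrow range (median 0.18), whereas the probes of Vps9d1 lie at 0.64 and -0.43.

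Across all genes, probes richer in G and C had lower differences, and both families were on probes with less G and C than most. The median probe GC content was 40% for Snx, 41.7% for Vps and 45% for all genes. Over the 17445 genes the correlation of GC content with the difference was -0.213 (Pearson, across genes, which are not independent replicates). The median difference of all genes fell from 0.01 for probes of at most 35% GC to -0.26 for those above 50% and up to 55%. For the 293 probes over 55% it was -0.71. Against the median of their own GC class, the Snx genes lay at 0.22, with 21 of 27 above it, and the Vps genes at -0.01, with 14 of 29 above it. By construction, as many of all genes lie above a class median as below it. The contrast chose the members, so nothing is read from these counts, and the part of probe GC in the gap was not tested. The HOPS and CORVET probes had a median GC content of 48.3%. Within the families the correlation of difference with mean level was -0.297 over the Snx genes and 0.54 over the Vps genes, where the dim Vps37d is the lowest point.

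Promoters are shown for members that share the letters CACGTG, a site bound by several bHLH factors, TFEB and TFE3 of the lysosomal gene network among them. RefSeq promoters (GRCr8, 250 bases before the annotated start) matched 46 of the 56 tested members. CACGTG, which reads the same on both strands, was in 8 of the 46 (17.4%), namely 3 of 21 Snx (14.3%) and 5 of 25 Vps promoters (20%). It was in 1591 of 27457 promoters of all genes (5.79%). In this paragraph all genes means every RefSeq gene with a promoter, tested on the arrays or not, so the background is unlike the tested members. TGACTCA, the AP-1 letters, on either strand, was in 0 of 46 and in 1093 of all (3.98%). Member promoters also held more G and C, with medians of 63.2% for Snx and 57.6% for Vps against 52% for all genes. Windows of 80 bases follow 5′ to 3′ along the gene's strand, with CACGTG in capitals. They lie at chr20:30976890-30976969 (minus strand, Vps26a), chr12:38685441-38685520 (plus, Vps33a), chr8:53595378-53595457 (minus, Vps11), chr3:138075602-138075681 (plus, Vps16) and chr2:46991665-46991744 (minus, Snx18).
Vps26a: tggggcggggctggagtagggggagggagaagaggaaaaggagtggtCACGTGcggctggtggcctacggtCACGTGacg
Vps33a: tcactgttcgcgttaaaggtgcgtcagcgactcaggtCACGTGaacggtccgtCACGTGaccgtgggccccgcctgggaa
Vps11: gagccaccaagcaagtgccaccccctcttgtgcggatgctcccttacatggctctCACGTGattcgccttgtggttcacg
Vps16: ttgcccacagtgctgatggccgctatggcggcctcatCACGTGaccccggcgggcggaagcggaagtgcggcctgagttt
Snx18: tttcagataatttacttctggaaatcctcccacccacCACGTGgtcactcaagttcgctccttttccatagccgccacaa

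The 8 promoters with CACGTG belonged to members at both ends of the range. Their differences were 1.35 for Snx18, 0.36 for Snx2, 0.30 for Vps26a, 0.09 for Snx8, 0.04 for Vps33a, -0.05 for Vps37b, -0.35 for Vps11 and -0.61 for Vps16. Vps26a and Vps33a each held CACGTG at 2 positions, at -33 and -9 from the start of Vps26a and at -46 and -30 from that of Vps33a. A match describes these letters and says nothing of binding.

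The partners of these genes under other names were read from the same fit. Of 107 such genes tested out of 114 listed, limma called 25 higher and 28 lower, or 23.4% and 26.2%, against 21.9% and 35.4% of all genes. Their median was -0.04, against -0.10 over all genes. Under median centring the counts were 64 and 5, and with the slide as a block 18 and 20. Retromer partners with the WASH and CCC complexes gave 2 higher and 4 lower of 19 tested, or 10.5% and 21.1%. Tbc1d5, which switches off Rab7 on retromer endosomes, fell by 0.81 ± 0.07 (limma adjusted p = 8.04e-05), and Washc3, a subunit of the actin-nucleating WASH complex, fell by 0.69 ± 0.07 (limma adjusted p = 0.000166). Ccdc93 of the CCC complex rose by 0.60 ± 0.06 (limma adjusted p = 0.000181). Ankrd50, a retromer and WASH partner, fell by 0.54 ± 0.12 (limma adjusted p = 0.00537) and lost its call under median centring.

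Among sorted receptors and clathrin adaptors, 2 were called higher and 8 lower of 23, or 8.7% and 34.8%, the latter near the 35.4% of all genes. Sort1, the sorting receptor sortilin that retromer returns to the Golgi, fell by 0.84 ± 0.08 (limma adjusted p = 0.000118), with -0.36 as the mean of its probes. The adaptor subunit Ap1b1 had a difference of -0.56 ± 0.11 and was called by limma, and the Golgi adaptor Gga3 rose by 0.55 ± 0.08 (limma adjusted p = 0.000891). The phosphoinositide enzymes, which make and remove the lipids that PX domains bind, gave 7 higher and 8 lower of 20. These shares were 35% and 40%, against 21.9% and 35.4% of all genes. The PI3-kinase VPS34 (Pik3c3) and its regulatory subunit VPS15 (Pik3r4), named for yeast Vps genes but outside the naming rule, had differences of -0.55 ± 0.05 and -0.66 ± 0.06 (limma adjusted p = 0.000148 and 0.000114). The phosphatase Fig4 fell by 0.75 ± 0.06 (limma adjusted p = 7.2e-05), while the myotubularin Mtmr6 rose by 0.46 ± 0.13 (limma adjusted p = 0.0182), with 0.26 under normexp and 0.72 with the slide as a block.

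ESCRT genes without a Vps name gave 6 higher and 3 lower of 20, with a median of 0.02. These shares were 30% and 15%, against 21.9% and 35.4% of all genes. The early ESCRT-0 subunit Stam (0.61 ± 0.11), the ESCRT-III subunits Chmp5 (0.52 ± 0.07) and Chmp3 (0.52 ± 0.06) and the ESCRT-I subunit Ubap1 (0.39 ± 0.07) were all called higher by limma, though the mean of the Chmp3 probes was 0.13. Endosomal tethers and SNAREs gave 8 higher and 5 lower of 25, or 32% and 20%, with a median of 0.04. The Rab5 effector Eea1 was 0.98 ± 0.19 higher, but normexp background correction gave -0.02. The SNARE-disassembling ATPase Nsf had a difference of -0.53 ± 0.07, the adaptor Hook3 one of 0.50 ± 0.12 and the SNARE Snap29 one of 0.45 ± 0.06, all called by limma. Nsf, Ap1b1 and Pik3c3 were not called under median centring, at -0.17, -0.19 and -0.18. Hook3 (0.62) and Ubap1 (0.22) were not called with the slide as a block, nor Stam (0.16) under normexp.

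Of the close relatives that the array files list under older names, Vps50 (Ccdc132), the EARP subunit that replaces Vps54, rose by 0.23 ± 0.07 (limma adjusted p = 0.0235). Vps35l, the scaffold of the retriever complex and listed by a locus number, fell by 0.51 ± 0.06 (limma adjusted p = 0.000382). Vps26c (Dscr3), its partner in retriever, was at 0.16 ± 0.09 (limma adjusted p = 0.183). Vps35l and Vps35 (0.23), which share the scaffold role in retriever and retromer, thus lay on opposite sides of 0.

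**Figure D5:**
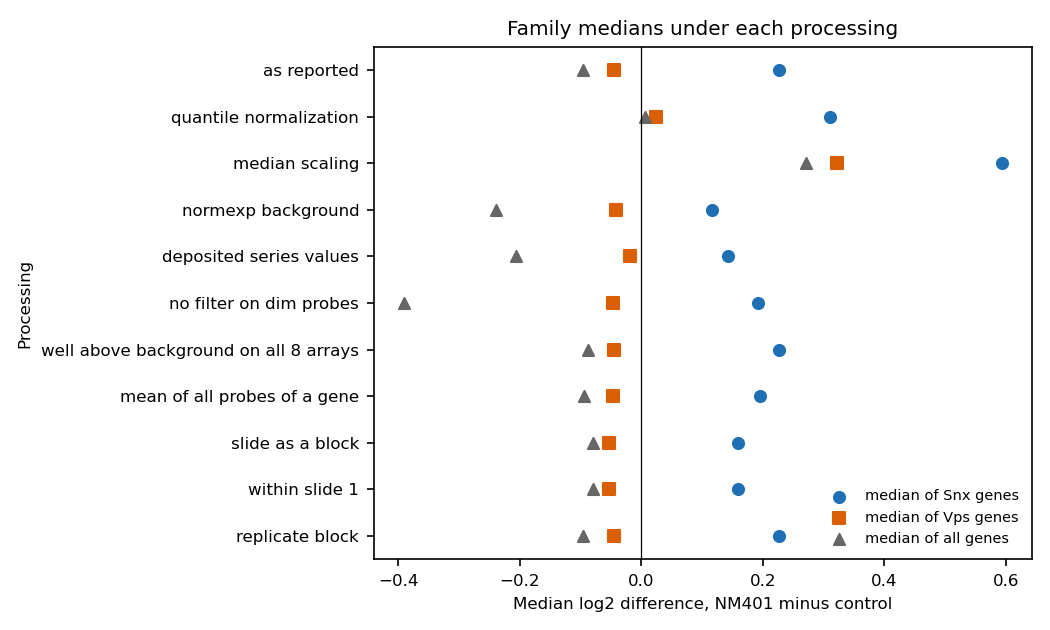
Median log2 difference of the Snx genes (circles), the Vps genes (squares) and all genes (triangles) under each way of processing the arrays. The Snx median lies to the right of the Vps median in every setting drawn, from 0.12 against -0.04 with normexp to 0.59 against 0.32 with centring on the array median, where all 3 medians are above 0.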

How the data were processed

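RNA from 8 cultures was labelled with Cy3 and hybridised, 1 culture to an array (1-colour Agilent). For each array the authors deposited the scanner's spot intensity values. Per the file headers these came from Agilent Feature Extraction 11.0.1.1, and their processed signal had background subtracted within the array and no scaling across arrays. The authors' series table held the scanner's median pixel intensity (equal for 503808 of 503808 values), linear and uncentred, and served as an alternative. Of 62976 spots, 58717 were not controls. Spots that the software marked as outliers were dropped, which lost 47 probes, and the rest were averaged per probe as log2 before the 75th percentile of the array was subtracted.

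A probe entered the limma 3.58.1 fit (R 4.3.3, lmFit and eBayes, two-sided, no covariate) if at least 4 of the 8 arrays had it well above background, with Benjamini-Hochberg adjustment over the probes fitted. Files were read with data.table (version 1.17.8). The code was tested on simulated data. RefSeq (GRCr8) named 21109 accessions and gave the promoters, with no coordinate carried between builds. It named no gene for the representative probes of Snx5, Snx21, Snx32, Vps13d, Vps37c and Vps41, whose names are those of the array files. The members, lists and roles were chosen with earlier results of these data known. By rule, every tested member is named with its difference, values per array are given for the 5 highest and 5 lowest Snx and Vps genes and the retromer trimer, and each pathway list names up to 4 called genes with the largest differences. A marker and a pathway gene are not reported here. Values per array for Snx9 and the second probes of Vps26a and Vps9d1 were added after they were seen. Alternatives were other scalings, normexp background correction with an offset of 50 units, the series values and other filters on dim probes. The mean of a gene's probes, the slide, the replicate number and leaving out each array were also used.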

Additional observations from a re-analysis of the deposited data

Results flagged for a closer look

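Within the groups of 4 arrays, 9 of the 112 groups examined had 1 array far from the others by Dixon's ratio (critical value 0.829), where chance gives about 1 in 20. On the log2 scale used above, Snx1 was at 3.641 on NM401 replicate 3, against 3.766 to 3.789 on the other exposed arrays. Snx16 was at -2.814 and Snx24 at -2.566 on NM401 replicate 1, against -3.082 to -3.044 and -2.772 to -2.743. Snx29 was at -2.454 on the same array, against -2.726 to -2.702, and at -1.675 on control replicate 4, against -1.604 to -1.594. Snx18 was at -3.847 on NM401 replicate 2, against -4.115 to -4.074, and Vps39 at -2.461 on that array, against -2.388 to -2.382. Snx3 was at 2.332 on control replicate 3, against 2.13 to 2.144, and Vps52 at -0.8502 on control replicate 4, against -1.23 to -1.172. NM401 replicate 1, the exposed array on the slide of the controls, holds 3 of the 9.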

How the results depend on the processing

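The gap between the Snx and Vps medians kept its direction in every setting run, at 0.16 with normexp and with the series values, 0.21 with the slide as a block, which rests on NM401 replicate 1 alone and so equals the value within slide 1, and 0.23 to 0.29 when 1 array was left out. The counts depended on the scaling, since centring on the array median adds 0.37 to every gene. It gave 8254 genes higher and 1975 lower, 22 and 2 Snx, 16 and 0 Vps and 64 and 5 pathway genes, medians of 0.59 (Snx), 0.32 (Vps) and 0.27 (all genes), and 11 of 12 role groups with a median above 0 where 6 were. The share of calls that were higher was 38.2% as reported, 51.7% with quantile normalization and 80.7% with median centring, and among member calls 57.1%, 70.6% and 95%. Median centring turned above 0 Vps28 (0.18), Snx3 (0.18), Vps29 (0.32), Vps37c (0.32), Snx17 (0.0625), Vps53 (0.21), Vps37b (0.32), Vps11 (0.0173), Vps52 (0.0761), Vps13b (0.13) and Snx19 (0.35), and also Vps41 (0.20), Snx14 (0.22) and Vps39 (0.25), 14 of 22 genes in all. Snx29, Snx32, Vps13a, Vps13d, Vps16, Vps18, Vps26b and Vps37d stayed below 0, but of these only Snx29 and Snx32 were still called. Quantile normalization gave 7 Vps genes lower and medians of 0.31, 0.0238 and 0.00566 for Snx, Vps and all genes. Normexp gave 9407 genes lower, 9 Snx higher, a Snx median of 0.12 and one of -0.24 for all genes, with Snx33 at -0.56 and Eea1 at -0.0192. The series values gave a Snx median of 0.14 and -0.21 for all genes, with Snx33 at -0.48. Testing all probes gave 9 Snx higher, 6 Vps lower, a Snx median of 0.19 and -0.39 for all genes. The slide as a block gave 2216 genes higher and 3525 lower, 6 Vps lower, and medians of 0.16 (Snx) and -0.0799 (all genes). Within slide 1, with 1 exposed array assumed to vary like the controls, 755 genes were higher and 1361 lower, 2 and 2 Snx, 1 and 2 Vps and 1 and 10 pathway genes, with the same medians. Leaving out 1 array gave 7 to 8 Vps genes lower instead of 11, with 7 without control replicate 2, 3 or 4 or NM401 replicate 1 or 2. The cause of these changes, the smaller number of arrays included, was not tested. Of 35 called members, 4 kept their call in all 18 settings (Snx29, Snx32, Snx7 and Vps4a), and 10 in the 17 settings other than slide 1 alone, which has 1 exposed array (also Snx6, Snx9, Snx13, Snx15, Snx20 and Vps36). Under normexp Snx18, Snx11, Snx24, Snx16, Snx4, Snx3 and Vps53 lost their calls.

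The labels do not say whether the replicate numbers pair the arrays. The deviations of same-numbered arrays correlated at 0.188, -0.00662, 0.0853 and -0.0561, and those of differently numbered arrays at -0.295 to 0.172. With so few arrays these values cannot settle whether the cultures were paired. With the replicate block 14 Snx genes were called higher and 3 lower, and 4 and 8 Vps genes, with unchanged medians.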
